A study of Mus musculus with 4 samples.

Results

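The genes described here are those of major histocompatibility complex (MHC) class II antigen presentation: Cd74, H2-Aa, H2-Ab1, H2-Eb1, H2-DMa and H2-DMb1. They were chosen by name, as every probe set of the mouse MG_U74Av2 array that the platform annotation assigns to 1 of these 6 genes. This gave 8 of 12488 probe sets, among 8252 named genes on the array. RNA from whole liver of control mice was compared with RNA from liver of mice called Hepatic Reductase null, on 2 arrays of each genotype, numbered 7 and 8 in both. In the known line of this name an albumin-driven Cre removes Por, the P450 oxidoreductase that donates electrons to microsomal P450 enzymes, from hepatocytes. The labels do not spell this out, and they state no age, sex or strain. They describe pools of 3 animals of a genotype in each of 2 experiments, whereas the control titles speak of a mouse, so p-values measure the spread between these arrays, whatever each array holds.

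Values are signals on a linear scale from the array software, and their precision is limited by the number of arrays. A log2 change is null minus control. Of 7241 probe sets tested with limma, 22 (0.304%) passed an adjusted p of 0.05 upward in null liver and 6 (0.0829%) downward, 28 in all, which became 10 to 15 with any 1 array left out. No probe set was named Por (0 in the annotation used here), so the genotype could not be checked on it. The hepatocyte marker Alb lay between 8991 and 9809 on the 4 arrays, as whole liver should give. Of 11 tested hepatocyte markers, 8 lay lower on both null arrays, where 23.4% of all tested probe sets did. Another 1 lay higher on both, where 20.4% did, and 0 passed in limma. At an unadjusted p under 0.05 in limma, 5 were lower, where 6.46% of all tested probe sets were, and 0 higher, where 6.16% were. Null replicate 7 stood apart in transcripts of pancreatic acinar cells, with Ctrb1, a digestive protease, at 1307.3 against 58.0 to 78.7 on the other arrays. Results for the class II genes are therefore also given without that array.

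MHC class II molecules are surface proteins of antigen-presenting cells, in liver chiefly Kupffer cells and other macrophages, dendritic cells and B cells, with lower amounts on sinusoidal endothelium. An alpha and a beta chain (H2-Aa with H2-Ab1, or H2-Ea with H2-Eb1) pair in the endoplasmic reticulum around the invariant chain Cd74, which blocks the peptide groove and leads the complex to endosomes. There cysteine proteases trim Cd74, and the H2-DM dimer (H2-DMa with H2-DMb1 or H2-DMb2) exchanges the remaining fragment for peptides taken up by the cell. Their genes share a promoter module of an X box, bound by RFX, and a Y box, bound by NF-Y, and are switched on by the coactivator Ciita, which interferon gamma induces.

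Promoters of 4 of the 6 members were searched for this module, those of H2-Aa, H2-Eb1, H2-DMa and H2-DMb1, and those of Cd74 and H2-Ab1 were not searched here. The 3 that hold it are shown because it is the shared control sequence of the family. The sequences are from RefSeq on GRCm38.p6, each running 5′ to 3′ on the gene's strand up to the base before the annotated start of transcription. Capitals mark the X box half-site (searched as GNAACT) and the Y box core (searched as TGATTGG), which do not overlap. The regions are chr17:34287824-34287924 on the minus strand for H2-Aa, chr17:34305756-34305866 on the plus strand for H2-Eb1 and chr17:34153077-34153190 on the plus strand for H2-DMb1.
H2-Aa: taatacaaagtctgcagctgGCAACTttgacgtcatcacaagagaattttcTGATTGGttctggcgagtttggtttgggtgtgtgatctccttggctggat
H2-Eb1: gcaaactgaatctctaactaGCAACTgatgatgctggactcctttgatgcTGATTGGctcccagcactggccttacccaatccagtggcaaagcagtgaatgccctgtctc
H2-DMb1: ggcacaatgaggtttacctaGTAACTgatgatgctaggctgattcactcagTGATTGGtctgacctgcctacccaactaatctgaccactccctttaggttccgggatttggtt

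The distance between the 2 elements was 25 bases in H2-Aa, 24 in H2-Eb1 and 25 in H2-DMb1, and the Y core began 50, 61 and 63 bases before the start of transcription. Over the 250 bases before the start in all 32851 promoters of the table, searched on both strands, the Y core was found in 7.23% and the X half-site in 37.3%. An X half-site followed by a Y core on the same strand at a distance of 10 to 40 bases was found in 76 promoters (0.231%). The search letters were chosen with these sequences in view. Both annotated H2-DMa promoters held neither search string in this window, and variants of the strings were not searched. Among the class II relatives H2-Eb2 held the pair, while H2-Oa, H2-Ob and H2-DMb2 held the Y core without the X half-site.

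The invariant chain and the classical alpha and beta chains had higher signals on both null arrays than on both control arrays, by 1.28- to 1.52-fold, and the H2-DM chains did not. None of these differences passed the test across all probe sets, which on simulated data recovered only 8.5% of 1.5-fold changes. Cd74 was at 625.0 and 578.7 in control liver and at 815.5 and 824.4 in null liver. The 2 null values lay within 0.02 of each other on the log2 scale, and the gap between genotypes exceeded the gap between replicates of either. The log2 change of Cd74 was 0.45 ± 0.10 (SE, 1.36-fold, 95% interval 1.15 to 1.61), with adjusted p = 0.141 in limma. In bulk RNA, more cells that carry a transcript and more of it per cell cannot be told apart.

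H2-Aa, the alpha chain of the I-A molecule, was at 190.6 and 186.5 in control liver and at 300.8 and 252.2 in null liver. Here the control arrays were alike and the null arrays differed by 0.25 on the log2 scale, with null replicate 7 the higher. The log2 change was 0.55 ± 0.15 (SE, 1.46-fold, 95% interval 1.15 to 1.86), with adjusted p = 0.203 in limma. Its partner chain H2-Ab1 was at 59.4 and 64.5 in control liver and at 97.5 and 90.9 in null liver. All 4 pairings of a null with a control array gave H2-Ab1 a log2 difference of 0.49 to 0.71, and the groups did not overlap. The log2 change was 0.60 ± 0.18 (SE, 1.52-fold, 95% interval 1.13 to 2.05), with adjusted p = 0.25 in limma, the largest change among the 6 members.

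H2-Eb1, the beta chain of the I-E molecule, was at 91.8 and 124.7 in control liver and at 141.8 and 132.0 in null liver. The groups did not overlap, but the control arrays differed by 0.44 on the log2 scale, more than the mean difference between genotypes. Its log2 change was 0.35 ± 0.20 (SE, 1.28-fold, 95% interval 0.926 to 1.77), with adjusted p = 0.513 in limma. Without control replicate 7 it came to 0.13, and without control replicate 8 to 0.58. Its alpha chain partner H2-Ea was at 1.3 and 2.5 in control liver and at 2.3 and 1.6 in null liver, below the floor of 7.1 on all 4 arrays. The gene table of the C57BL/6J assembly lists H2-Ea as a transcribed pseudogene, and mice of that haplotype are known to make no I-E alpha chain.

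The H2-DM chains, which edit the bound peptide, had signals that overlapped between the genotypes. H2-DMa was at 111.5 and 93.7 in control liver and at 99.8 and 91.0 in null liver, and the groups overlapped. Its log2 change was -0.10 ± 0.18 (SE, 95% interval -0.53 to 0.32, adjusted p = 0.86 in limma), and it turned to 0.024 without control replicate 7. A second probe set of H2-DMa was at 4.7 to 7.7 on all arrays and was too dim to test. H2-DMb1 was at 58.6 and 45.9 in control liver and at 54.9 and 52.3 in null liver, with both null values between the control values. Its log2 change was 0.05 ± 0.23 (SE, adjusted p = 0.961 in limma), and the 95% interval of -0.50 to 0.59 does not exclude a change of the size seen for Cd74. The sign of H2-DMb1 turned under median scaling (-0.027) and without control replicate 8 (-0.13). A probe set assigned to both H2-DMb1 and H2-DMb2 was at 15.2 and 16.7 in control liver and at 8.6 and 8.9 in null liver. It was lower on both null arrays, could not be given to 1 gene and was too dim to test.

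**Figure D1:**
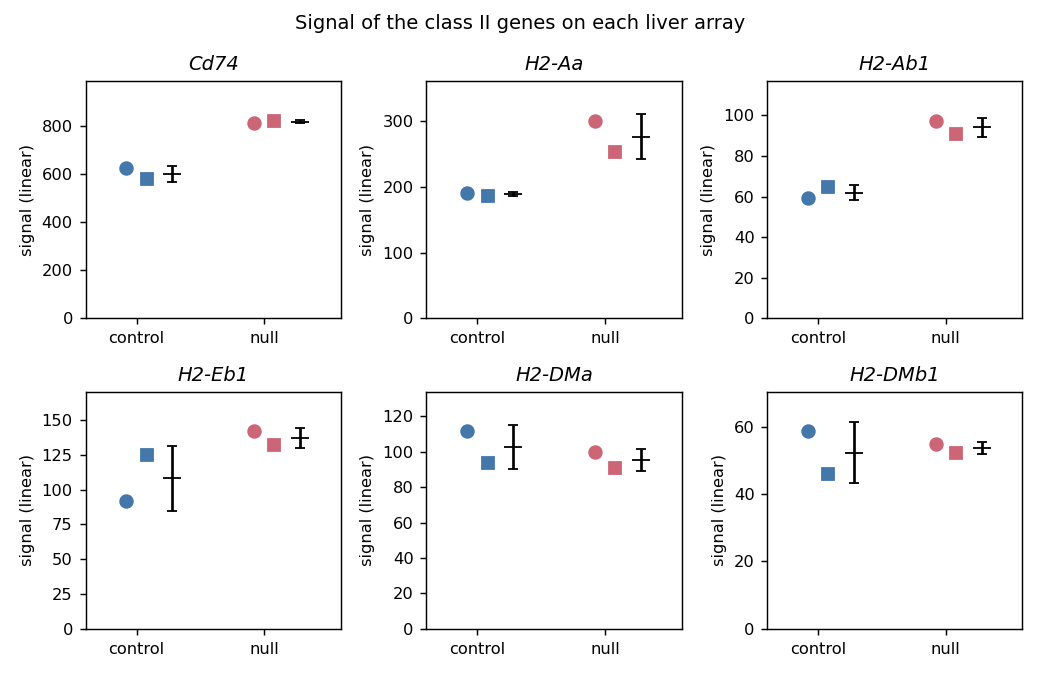
Signal of each tested class II gene (linear scale, axis from 0) on the control (blue) and null (red) arrays, with circles for replicate 7, squares for replicate 8 and the mean with its SD (n = 2) in black. Cd74, H2-Aa, H2-Ab1 and H2-Eb1 are higher on both null arrays, while H2-DMa and H2-DMb1 overlap.

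All 6 genes were tested, on 6 of the 8 probe sets, since the other 2 did not pass the filter on dim signals. At an adjusted p under 0.05 in limma, 0 of 6 passed in either direction, where 0.387% of all tested probe sets did (0.304% higher and 0.0829% lower). At an unadjusted p under 0.05 in limma, 3 of 6 were higher (Cd74, H2-Aa and H2-Ab1), where 6.16% of probe sets were, and 0 of 6 were lower, where 6.46% were. Both null arrays lay above both control arrays for 4 of 6, where this held for 20.4% of probe sets, and below them for 0 of 6, where this held for 23.4%. The median log2 change of the 6 genes was 0.40, and that of all 5510 tested genes was -0.01. The adjusted p of Cd74 ranged from 0.116 to 0.5 over 11 alternative settings, that of H2-Aa from 0.171 to 0.578 and that of H2-Ab1 from 0.244 to 0.664.

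The members were also set side by side by role. After centring each gene on its own mean, the mean log2 signal of Cd74, H2-Aa, H2-Ab1 and H2-Eb1 was -0.30 and -0.19 in control liver and 0.30 and 0.19 in null liver. That of the H2-DM pair was 0.16 and -0.14 in control liver and 0.04 and -0.06 in null liver. The difference between these means was -0.46 and -0.05 in control liver and 0.26 and 0.25 in null liver. It was higher on both null arrays, its spread between the control arrays was wide, and it was not tested, since the split was made with the values known.

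The other class II genes on the array were dim. H2-Oa, a chain of the H2-DM inhibitor H2-O, was at 5.0 and 5.2 in control liver and at 23.1 and 11.3 in null liver, with both control values below the floor. H2-Ob, its partner, was at 12.5 and 16.2 in control liver and at 27.2 and 4.3 in null liver, so its null arrays lay on either side of the control arrays. H2-Eb2 did not exceed 6.6 on any array. H2-DMb2 was at 5.9 and 20.6 in control liver and at 31.6 and 19.0 in null liver, with a log2 change of 1.02 ± 0.67 (SE, adjusted p = 0.583 in limma). That change was 0.25 without control replicate 7, 1.79 without control replicate 8 and 0.11 with a floor at the 50th percentile. Ciita, the coactivator of the family, was at 13.3 and 13.5 in control liver and at 6.2 and 10.5 in null liver. It was thus lower on both null arrays, at signals too dim to test. These relatives are named outside the rule for named genes.

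The list of peptide preparation and loading genes, chiefly proteases that cut antigens and Cd74 and their inhibitors, had more positive than negative changes, and none of its 13 tested genes (0 of 13) reached an adjusted p of 0.05 in limma. At an unadjusted p under 0.05, 5 were higher, where 6.16% of all tested probe sets were, and 2 lower, where 6.46% were. The median log2 change was 0.27, with 10 positive and 3 negative changes. Ctss, the cathepsin that makes the last cuts in Cd74 in antigen-presenting cells, was at 397.6 and 384.8 in control liver and at 479.3 and 524.8 in null liver (0.36 ± 0.11, log2, SE, adjusted p = 0.268). Both null values lay above both control values. Ctsd, an aspartic protease of lysosomes, was at 0.44 ± 0.13 (adjusted p = 0.249) and Ctsl at 0.39 ± 0.13 (adjusted p = 0.301). The cathepsin inhibitor Cstb was at 575.4 and 602.6 in control liver and at 826.6 and 939.0 in null liver, a change of 0.58 ± 0.11 with adjusted p = 0.0965, the smallest of the list. Another inhibitor, Cst3, was at 0.27 ± 0.09, and Lgmn, an asparagine-cutting protease, at 0.32 ± 0.20. The rest of the positive changes were those of H2-DMb2 (given above), Ctsb (given below), Ctsz at 0.14 ± 0.16 and the disulfide-reducing enzyme Ifi30 at 0.16 ± 0.21, and the signs of Ctsz and Ifi30 turned with 1 array left out.

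Ctsc, which activates serine proteases of granules, had lower signals on both null arrays. It was at 186.5 and 186.8 in control liver and at 115.3 and 124.8 in null liver, a log2 change of -0.64 ± 0.15 (SE, adjusted p = 0.147 in limma). Both other tested Ctsc probe sets were negative too, at -0.86 and -0.60. Ctse, an aspartic protease, was at 976.8 and 708.3 in control liver and at 629.3 and 466.7 in null liver, and its groups did not overlap. Its log2 change was -0.62 ± 0.20 (SE, adjusted p = 0.268 in limma), with its other probe sets at -0.41 and 0.23. The lysosomal membrane protein Lamp1 was at -0.05 ± 0.07. Ctsb was at 0.17 ± 0.10 on its brightest probe set and at 0.85 and -0.33 on 2 others, so its probe sets disagreed. Many of these proteases are also made by hepatocytes and serve general lysosomal breakdown. Ctsl, Cst3, Lgmn, Ctsz, Ifi30, Ctse, Lamp1 and Ctsb are named outside the rule.

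**Figure D2:**
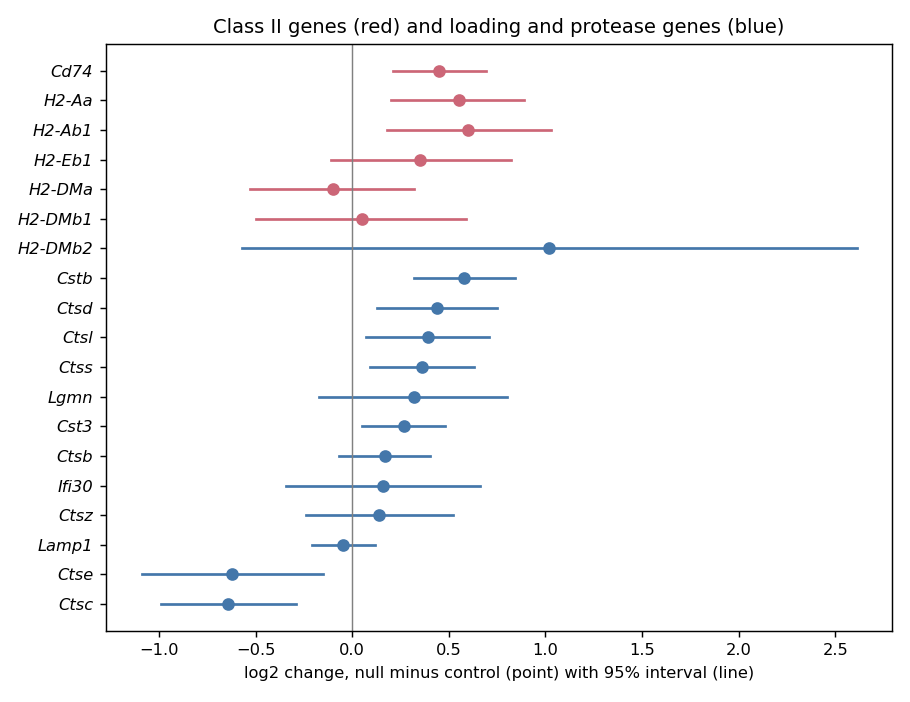
Log2 change (null minus control, points) with its 95% interval from limma (lines) for the 6 class II genes (red, in list order) and the 13 tested genes of peptide preparation and loading (blue, ordered by change). The intervals of Cd74, H2-Aa and H2-Ab1 lie above 0, those of H2-Eb1, H2-DMa and H2-DMb1 span it, and those of Ctsc and Ctse lie below it.

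Regulators of the class II promoters had changes of both signs. Of 12 tested regulators 0 passed in limma, with a median log2 change of 0.03. At an unadjusted p under 0.05, 0 were higher, where 6.16% of all tested probe sets were, and 1 lower, where 6.46% were. Nfyb, a subunit of the Y box factor NF-Y, was at 133.8 and 137.1 in control liver and at 98.8 and 81.1 in null liver (-0.60 ± 0.17, log2, SE, adjusted p = 0.245). The other subunits were at -0.28 ± 0.15 for Nfyc and 0.35 ± 0.30 for Nfya. Spi1 (PU.1, a factor of myeloid and B cells) was at 0.15 ± 0.22, and Irf1, a factor induced by interferon, at 0.04 ± 0.21 with a sign that turned under median scaling and with arrays left out (both named outside the rule). Ifngr2, a chain of the interferon gamma receptor, was at 0.82 ± 0.37 with control values of 39.9 on replicate 7 and 20 on replicate 8. Among 7 tested targets of interferon gamma 0 passed in limma, with a median of 0.08. At an unadjusted p under 0.05, 0 were lower, where 6.46% of all tested probe sets were, and 1 was higher, where 6.16% were. That was Igtp, a GTPase, at 88.8 and 83.9 in control liver and at 134.3 and 109.7 in null liver (0.49 ± 0.18, adjusted p = 0.334). Gbp2 was at 0.49 ± 0.42, the chemokine Cxcl9 at 0.61 ± 0.52 (-0.038 without null replicate 7) and Iigp1 at -0.18 ± 0.11.

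Class I genes, which present peptides of the cell's own making and are expressed by hepatocytes as well, had a median log2 change of 0.04. Of 15 tested genes 0 passed in limma. At an unadjusted p under 0.05, 2 were higher, where 6.16% of all tested probe sets were, and 0 lower, where 6.46% were. B2m, the light chain of every class I molecule, was at 3065.2 and 3242.8 in control liver and at 3430.6 and 3195.7 in null liver, a log2 change of 0.07 ± 0.08 that turned to -0.0036 under median scaling. H2-K1, a heavy chain whose probe set can bind related transcripts, was at 0.03 ± 0.07 and turned negative under both other scalings and without null replicate 7. The related H2-D1 was at 0.04 ± 0.08 and turned negative under the same settings (both named outside the rule). Tap1, of the peptide transporter, was at 77.5 and 71.8 in control liver and at 137.1 and 98.7 in null liver (0.64 ± 0.21, adjusted p = 0.282), with another probe set at -0.09. Tapbp was at 0.43 ± 0.17, with its other probe sets at 0.08 and -0.34, and Cd1d1, a lipid-presenting relative, at 0.19 ± 0.11. Only 2 genes of contact with T cells were bright enough to test. The adhesion molecule Icam1 was at 0.69 ± 0.25 (adjusted p = 0.341) and Cd48 at 0.77 ± 0.33 (adjusted p = 0.407), and neither passed. For both genes the null arrays lay above the control arrays, where this held for 20.4% of all tested probe sets. The change of the dim Cd48 was 0.40 with a floor at the 50th percentile.

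Position in the genome was set beside the values, since all members but Cd74 lie in 1 cluster of the MHC. In GRCm38.p6 the order runs Brd2, H2-DMa, H2-DMb2, H2-DMb1, Psmb9, Tap1, Psmb8, Tap2, H2-Ob, H2-Ab1, H2-Aa, H2-Eb1, H2-Eb2 and H2-Ea. The 3 members that neighbour each other, H2-Ab1, H2-Aa and H2-Eb1, had log2 changes of 0.60, 0.55 and 0.35. At the other end Brd2, H2-DMa, H2-DMb2 and H2-DMb1 were at -0.20, -0.10, 1.02 and 0.05, where the dim H2-DMb2 had the largest change of the tested genes in this order and the widest interval (-0.57 to 2.61). Between them lay the class I processing genes Psmb9 (0.01 ± 0.28), Tap1 (0.64 ± 0.21), Psmb8 (-0.16 ± 0.18) and Tap2 (-0.16 ± 0.30), with values of both signs. Psmb9, Psmb8 and Tap2 changed sign with arrays left out. Neighbours other than Tap1 are named outside the rule, and no test of position was made.

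**Figure D3:**
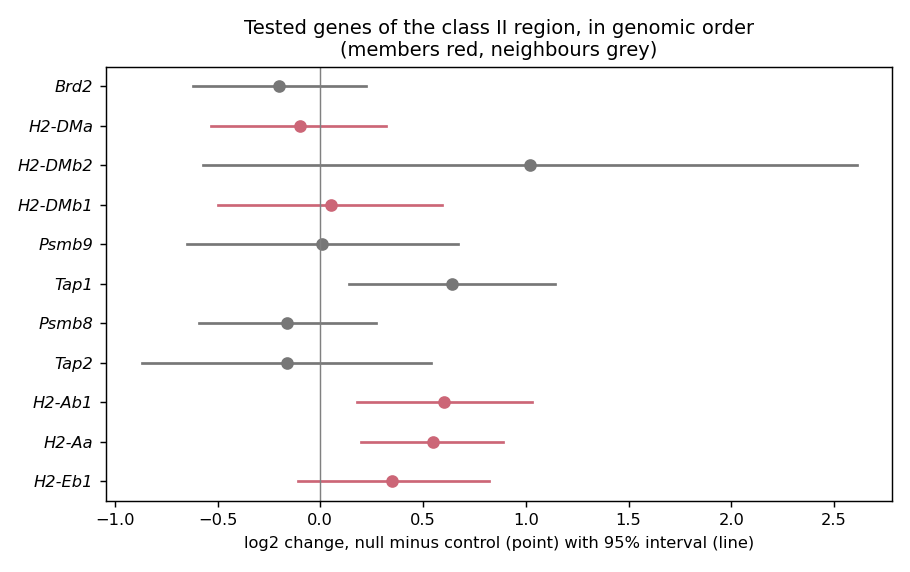
Log2 change (null minus control, points) with its 95% interval from limma (lines) for the tested genes of the class II region from Brd2 (top) to H2-Eb1 (bottom), in genomic order and not to distance, with members in red and neighbours in grey. H2-Ab1, H2-Aa and H2-Eb1 lie at 0.60, 0.55 and 0.35, H2-DMa and H2-DMb1 lie near 0, and the dim H2-DMb2 lies at 1.02 with the widest interval.

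Markers of the cells that carry class II were measured on the same arrays. The summed signal of the 6 members was 1137 and 1094 in control liver and 1510 and 1443 in null liver, which is 135% and 129% of the control mean. Such sums are weighted towards bright genes, here Cd74 and H2-Aa, and do not show that all members rose. Macrophage and Kupffer cell markers summed to 2537 and 2499 in control liver and to 3149 and 3413 in null liver (125% and 136%). Both sums were thus higher on both null arrays. Of 14 tested macrophage markers 0 passed downward in limma, where 0.0829% of all tested probe sets did. Upward 1 passed, where 0.304% did, and this was Mpeg1 (a pore-forming protein of phagocytes). Its signals were 150.0 and 134.3 in control liver and 361.4 and 377.9 in null liver (1.38 ± 0.14, log2, SE, adjusted p = 0.021), and the call ended with a floor at the 50th percentile, without the filter, without an intensity trend (adjusted p of 0.194, 0.158 and 0.288) and when any 1 array was left out (adjusted p of 0.07 without control replicate 7, 0.0826 without control replicate 8, 0.0743 without null replicate 7 and 0.118 without null replicate 8). Of these 14, 10 lay higher on both null arrays, where 20.4% of all tested probe sets did, and 1 lay lower on both, where 23.4% did. Their median log2 change was 0.28.

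Among single macrophage genes the changes were uneven. Lyz2, a lysozyme, was at 1.10 ± 0.21 (adjusted p = 0.0965), Cd14, a receptor for endotoxin, at 0.87 ± 0.19 (adjusted p = 0.129) and the complement gene C1qc at 0.28 ± 0.11 (adjusted p = 0.344). Adgre1, which encodes the macrophage antigen F4/80, was at 40.9 and 39.1 in control liver and at 43.8 and 44.5 in null liver (0.14 ± 0.24). The marker that lay lower on both null arrays was Msr1, a scavenger receptor, at -0.46 ± 0.32, and Clec4f, a lectin of Kupffer cells, was at 395.6 and 375.0 in control liver and at 389.2 and 374.7 in null liver, so its groups overlapped (both named outside the rule). Cd68 was at 0.27 ± 0.23 and turned to -0.011 without null replicate 8. None of the macrophage markers on the array was at or below the floor on all arrays (0 of 15). The part of macrophage number or state in the class II signals was not tested.

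Dendritic cell markers summed to 366.2 and 359.9 in control liver and to 409.9 and 409.1 in null liver (113% on both null arrays). Of 6 tested genes 0 passed in limma, with a median of 0.09. At an unadjusted p under 0.05, 0 were lower, where 6.46% of all tested probe sets were, and 1 was higher, where 6.16% were. That gene was Ccl22, a chemokine of dendritic cells and macrophages, at 11.6 and 14.1 in control liver and at 32.9 and 34.1 in null liver (1.39 ± 0.42, log2, SE, adjusted p = 0.252). The change of Ccl22 was 0.31 with a floor at the 50th percentile. Itgax was at 0.38 ± 0.30, and Xcr1 was near or below the floor, at 5.2 to 10.5. Flt3 at -0.20 ± 0.19 and Batf3 at -0.30 ± 0.28 lay lower on both null arrays. Thus 2 of 6 lay lower on both, where 23.4% of all tested probe sets did, and 1 (Ccl22) higher, where 20.4% did. B and plasma cell markers summed to 341.5 and 343.5 in control liver and to 329.8 and 354.4 in null liver, so the groups overlapped. Of 8 tested B cell genes 0 passed in limma, with a median of -0.08. At an unadjusted p under 0.05, 1 was higher and 0 were lower, beside the same 6.16% and 6.46% of probe sets. Ms4a1 (CD20) was at 25.3 and 24.4 in control liver and at 44.3 and 47.2 in null liver (0.88 ± 0.28, adjusted p = 0.265) and Cd79a at 0.52 ± 0.31. Pax5 at -0.42 ± 0.26 and Blnk at -0.61 ± 0.38 lay lower on both null arrays, and Cd79b at 0.22 ± 0.53 turned sign when control replicate 8 or null replicate 8 was left out.

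Sinusoidal endothelial markers summed to 97.9% and 102% of the control mean in control liver and to 116% and 106% in null liver. The sum was thus higher on both null arrays, with a median log2 change of 0.03 over 10 tested genes, 5 positive and 5 negative. A large part of this sum was 1 bright gene, Eng. It was at 618.5 and 629.1 in control liver and at 762.7 and 704.9 in null liver. Of the 10 genes 3 lay higher on both null arrays, where 20.4% of all tested probe sets did, and 1 lower, where 23.4% did. T and NK cell markers summed to 90.5% and 109% in control liver and to 139% and 98.2% in null liver, so the groups overlapped, and 2 were bright enough to test. Cd4, the coreceptor that binds class II, was at 8.3 and 24.3 in control liver and at 39.8 and 26.1 in null liver. Its log2 change was 1.18 ± 0.60 (SE, adjusted p = 0.481 in limma), 0.41 without control replicate 7, 1.96 without control replicate 8 and 0.28 with a floor at the 50th percentile. Thy1 was at -0.23 ± 0.60 and turned sign without null replicate 8. Among the markers too dim to test, Ncr1, Il2rb and Gzma lay higher on both null arrays and Klrd1 lower on both (named outside the rule). Both control values of Ncr1 (1.7 and 2.2) and both null values of Klrd1 (3.3 and 3.0) were below the floor, so their order says little. The T cell genes Cd3e and Cd3d did not exceed 9.2 on any array, and Cd3g was above that only on null replicate 7. Stellate cell and fibroblast markers summed higher on both null arrays too, at 124% and 146% of the control mean. Of 11 tested genes 0 passed in limma, with 9 positive and 2 negative changes. Both null arrays lay above both control arrays for 5 of these 11, where this held for 20.4% of all tested probe sets. The collagen genes were uneven, with Col1a1 at 1.81 ± 0.36 (adjusted p = 0.101 in limma) and Col3a1 at 1.31 ± 0.34 (adjusted p = 0.193). Col1a2 was at 0.12 ± 0.25 and its groups overlapped. These are values of the brightest probe set, and Col1a1 and Col1a2 each had 1 other tested probe set that is not given here. Much of the stellate sum was Dcn, at 838.4 and 843.9 in control liver and at 1029.2 and 1183.5 in null liver. The negative changes were those of Timp1 (-0.10 ± 0.20) and Pdgfrb (-0.37 ± 0.61), both named outside the rule. Hepatocyte markers were at 95.9% and 91.5%. Neutrophil markers were at 94.7% and 144%, and the dim cholangiocyte markers at 121% and 139%. The pancreatic acinar markers were at 915% on null replicate 7 and 72.8% on null replicate 8. Without null replicate 7 the log2 changes were 0.46 for Cd74, 0.42 for H2-Aa, 0.55 for H2-Ab1, 0.30 for H2-Eb1, -0.17 for H2-DMa and 0.012 for H2-DMb1.

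**Figure D4:**
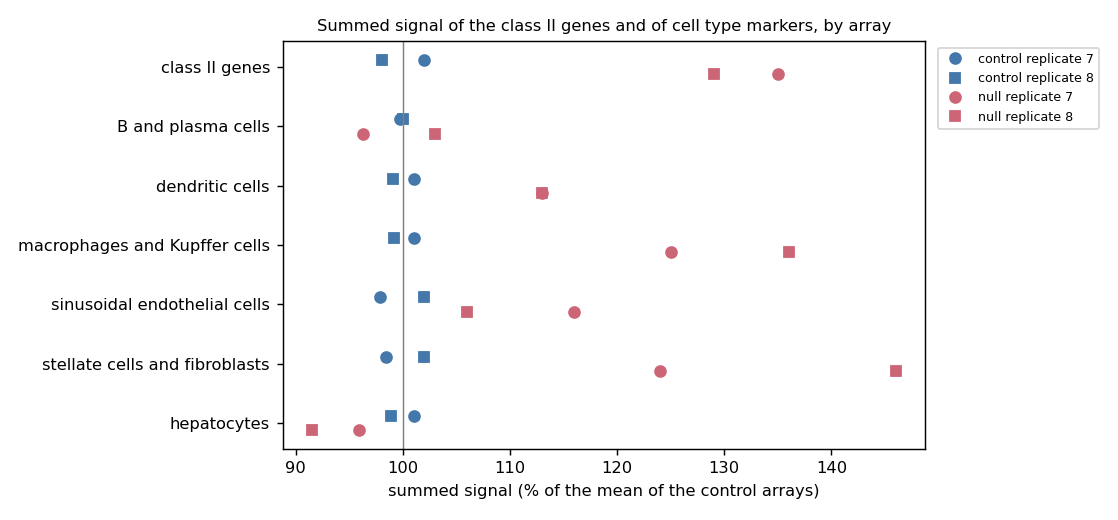
Summed signal on each array, as a percent of the mean of the control arrays, for the class II genes and for marker lists of 6 cell types (control blue, null red, circles for replicate 7 and squares for replicate 8). The class II genes (135% and 129%), macrophage markers (125% and 136%) and stellate cell markers (124% and 146%) are higher on both null arrays. So are dendritic cell markers (113% on both) and sinusoidal endothelial markers (116% and 106%), with median log2 changes of only 0.09 and 0.03 over their tested genes. Sums are weighted towards bright genes, such as Cd74 among the class II genes, Eng among the endothelial markers and Dcn among the stellate cell markers. Hepatocyte markers (95.9% and 91.5%) are lower on both null arrays, and B cell markers overlap.

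The genes closest to the mean pattern of the members were found over the 4 arrays by the Euclidean distance between centred log2 signals, among 5510 tested genes less the members. They were Sh3gl1 (distance 0.0228), Cope (0.0252), Nlrx1 (0.0296), Apoc2 (0.0365), Tmem97 (0.0405), Mrpl21 (0.0472), Tfip11 (0.0592) and Pcyt1a (0.0612). None of these 8 is on the lists of presentation genes or cell type markers used here. Apoc2, an apolipoprotein made by hepatocytes, was at 1208.9 and 1171.3 in control liver and at 1556.3 and 1396.7 in null liver. Tmem97, a sterol-responsive membrane protein, was at 0.35 ± 0.09 (adjusted p = 0.194 in limma) and Cope, a coatomer subunit, at 0.30 ± 0.11. With 4 arrays many genes can share such a pattern, and the likeness is given as a description.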

How the data were processed

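Liver RNA was hybridised to 4 Affymetrix MG_U74Av2 arrays. Per the labels, the authors' GCOS software gave a signal intensity per probe set from perfect match and mismatch probes, scaled to total chip fluorescence; its version is not given in the sources used here. Median signals were 26.1 to 28.4. Detection calls were not used here.

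Values below 7.1, the 25th percentile, were raised to it and converted to log2 without further scaling. After 66 control probe sets were left out, limma tests covered the 7241 probe sets whose mean lay above 16.8, the 40th percentile (version 3.58.1 in R 4.3.3, lmFit, eBayes with an intensity trend, genotype as the only term, two-sided, Benjamini-Hochberg over all 7241). The pooled variance counted for 4.78 degrees of freedom beside 2 from the arrays. The steps were tested on simulated data, where 8.5% of 1.5-fold and 36.1% of 2-fold changes were recovered. A gene with a change of this size that did not pass is therefore not shown to be unchanged. With 2 arrays a group the smallest two-sided p of an exact permutation test is 0.333, so none is given. Names came from the platform annotation, updated to GRCm38.p6: 10833 probe sets carried 1 gene symbol, 396 several and 1193 none. The brightest tested probe set stood for its gene.

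Named were the members, genes past the threshold or among the 4 of smallest p in each list, defining markers and the 8 nearest patterns, though part of the defining and leading genes of the marker lists are given only through their list's sum; exceptions are marked. Members and lists were chosen with earlier results of these data known. Lists share genes. The alternatives were other floors, a pseudocount of 10, no filter, other scalings, no trend, a replicate block, each array left out and probe sets averaged per gene.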

Additional observations from a re-analysis of the deposited data

How the results depend on the processing

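In limma, 0 of the 6 members passed under every alternative run, and the changes of Cd74, H2-Aa, H2-Ab1 and H2-Eb1 were positive in all of them (0.37 to 0.50, 0.42 to 0.67, 0.53 to 0.66 and 0.13 to 0.58). The median of the members was 0.33 under median scaling and 0.36 to 0.46 with 1 array left out. Over all probe sets the count past the threshold, 28 with all arrays (22 higher and 6 lower), was 0 (0 higher and 0 lower) with a floor at the 50th percentile, without the filter and without an intensity trend, and the cause was not tested. With 1 array left out, and so with fewer samples, it was 10 to 15 (10 to 13 higher and 0 to 4 lower). Quantile normalization gave 12 lower. With the replicate block it was 52 (37 higher and 15 lower). The labels do not say that numbers 7 and 8 mark a shared batch. The same-numbered deviations correlated at -0.0298 over probe sets. That value would miss a batch that moves only part of the genes, and whether the numbers mark a batch was not tested. The block passed no member. Lyz2 (adjusted p = 0.0479 in limma) and Col1a1 (adjusted p = 0.0357) passed with it.

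Reversed signs were H2-K1 at -0.029, H2-D1 at -0.012 and Clec4f at 0.015 (quantile normalization), and under median scaling H2-K1 at -0.042, H2-D1 at -0.035, Irf1 at -0.035, H2-DMb1 at -0.027, B2m at -0.0036 and Psmb9 at -0.065. With 1 array left out the ranges were -0.23 to 0.024 for H2-DMa, -0.13 to 0.22 for H2-DMb1, -0.03 to 0.094 for H2-K1, -0.33 to 0.34 for Psmb9, -0.35 to 0.037 for Psmb8, -0.50 to 0.17 for Tap2, -0.39 to 0.83 for Cd79b, -0.011 to 0.55 for Cd68, -0.046 to 0.37 for Ifi30, -0.065 to 0.34 for Ctsz, -0.19 to 0.27 for Irf1, -0.051 to 0.13 for H2-D1, -0.051 to 0.026 for Clec4f, -0.90 to 0.44 for Thy1 and -0.038 to 1.26 for Cxcl9. The causes were not tested. A gene near the floor is mostly background, which limits Ciita, H2-Oa, H2-Ob and H2-Ea. The size of a change in a dim gene can depend on the floor, as given above for H2-DMb2, Ccl22 and Cd4.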
